A study of Mus musculus with 15 samples.

Results

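The 9 genes described here encode parts of the contractile apparatus of vascular smooth muscle: Acta2, Actg2, Lmod1, Myh11, Myl9, Mylk, Cnn1, Tagln and Smtn. They were taken as a list by gene name from tables of 55536 genes, and all 9 were found in both tables and passed the filter on low values. By their labels, the samples are skeletal muscle of 15 male mice aged 2 months. The 5 controls are labelled wild type, 5 mice are labelled PdgfrB Knock Out and 5 are labelled PdgfrB D489V, and the series text places both alleles in the myogenin lineage and calls the second constitutively active. Myogenin is a transcription factor of differentiating skeletal muscle cells, and Pdgfrb encodes a receptor for platelet-derived growth factor that is best known from pericytes and vascular smooth muscle. The labels name no muscle, strain, litter, Cre driver line or batch, and nothing says that replicates are more than separate samples, so p-values measure the spread between these samples. The groups are called control, knockout and D489V below.

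Smooth muscle contracts when calcium-bound calmodulin activates myosin light chain kinase (Mylk), which phosphorylates the regulatory light chain (Myl9) of the smooth muscle myosin heavy chain (Myh11). The myosin then pulls on thin filaments of smooth muscle actin (Acta2 in vessels, Actg2 mainly in visceral muscle), which carry calponin (Cnn1), transgelin (Tagln), smoothelin (Smtn) and leiomodin (Lmod1). Many of these genes are driven by serum response factor with myocardin family coactivators, through a DNA element called the CArG box. In skeletal muscle these genes are best known from arterioles, and Acta2 and Tagln are also made by some pericytes and activated fibroblasts.

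The upstream sequences of the members that hold a CArG box or a near match are shown because it is the element through which serum response factor, described below, is known to act. RefSeq start sites on GRCm38.p6 were given for 6 of the 9 members, Acta2, Cnn1, Lmod1, Smtn, Mylk and Myl9, and the 250 bases before each start were searched on both strands. A CArG box has 10 bases: 2 C, then 6 A or T, then 2 G. A full match was found in 1 of the 6 windows, that of Myl9, against 1.47% of 32851 windows of the same length. A match with exactly 1 mismatch was found in 3 of the 6, those of Acta2, Lmod1 and Myl9, against 17.5% of all windows. Capitals mark the full or near matches, 5′ to 3′ on the strand of the gene. The full match is the first of the pair in Myl9, 161 to 152 bases before the start. The Acta2 matches lie 84 to 75 and 34 to 25 bases before the start, inside an exon of the GENCODE model, so only 30 bases around each are given. The Lmod1 and Myl9 stretches end where the GENCODE exon begins.
Acta2, chr19:34255438-34255467, minus strand: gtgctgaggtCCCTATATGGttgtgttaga
Acta2, chr19:34255388-34255417, minus strand: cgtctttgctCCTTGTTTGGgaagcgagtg
Lmod1, chr1:135324563-135324806, plus strand: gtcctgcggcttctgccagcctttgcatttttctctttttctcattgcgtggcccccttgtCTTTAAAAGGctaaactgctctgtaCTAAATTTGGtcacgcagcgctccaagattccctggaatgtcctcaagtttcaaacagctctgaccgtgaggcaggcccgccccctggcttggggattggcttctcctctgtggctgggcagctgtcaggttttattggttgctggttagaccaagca
Myl9, chr2:156775214-156775419, plus strand: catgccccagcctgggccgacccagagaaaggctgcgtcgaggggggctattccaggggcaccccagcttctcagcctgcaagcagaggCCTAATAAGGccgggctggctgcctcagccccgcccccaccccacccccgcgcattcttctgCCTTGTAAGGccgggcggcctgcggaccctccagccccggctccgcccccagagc
The letters CATTCC, the core of the element bound by TEAD factors, were found on either strand in 4 of the 6 windows (Acta2, Lmod1, Smtn and Mylk), against 12.6% of all windows. These matches are descriptions of the sequence and were not linked to binding in these data.

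Sums of normalized counts per sample ran from 29815559 to 36489777, and the number of genes above 0 from 20799 to 23783. The labelled tissue showed in every sample, with Acta1, the skeletal muscle actin, at 939485 to 1400228 normalized counts. Pdgfrb was 1754 ± 72.9 in controls, 1308 ± 266 in knockout and 906 ± 106 in D489V (SD, n = 5 each). Knockout minus control was -0.45 on the log2 scale (limma adjusted p 0.294), and D489V minus control was -0.96 on the log2 scale (limma adjusted p 0.00168), so the group described as having an active receptor held the least of its RNA. Xist, the RNA of the inactive X chromosome, was at 3165 normalized counts in knockout 3 and at no more than 101 in any other sample, although all labels give male mice. D489V 3 held a summed Schwann cell marker level of 19500 per kb against 4810 to 5800 in the other D489V samples. Fits with both samples left out are therefore also given below for the members and for the number of genes called. The marker lists and other gene lists were not refitted without them.

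Across the members, the order of the groups was the same for most genes, with knockout lowest and D489V highest, and the calls lay between the mutants. In knockout against D489V, Tagln, Myh11 and Lmod1 had lower values in knockout, with log2 differences of -0.72, -0.61 and -0.54, and passed the threshold of a limma adjusted p under 0.05. That is 3 of 9 members, where 20.8% of all 15299 genes tested passed in either direction 10.3% lower and 10.5% higher in knockout. Of these, Tagln alone still passed with knockout 3 and D489V 3 left out, and Lmod1 passed in 2 of 10 fits without 1 sample. Against control no member passed in either mutant group. The mean normalized count was ordered knockout, control, D489V for Acta2, Tagln, Myh11, Cnn1, Lmod1 and Mylk. Smtn and Myl9 were lowest in knockout and highest in control. The mean of Actg2 went the other way, lowest in control and highest in knockout. In bulk tissue, fewer smooth muscle cells and less RNA per cell cannot be told apart.

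**Figure D1:**
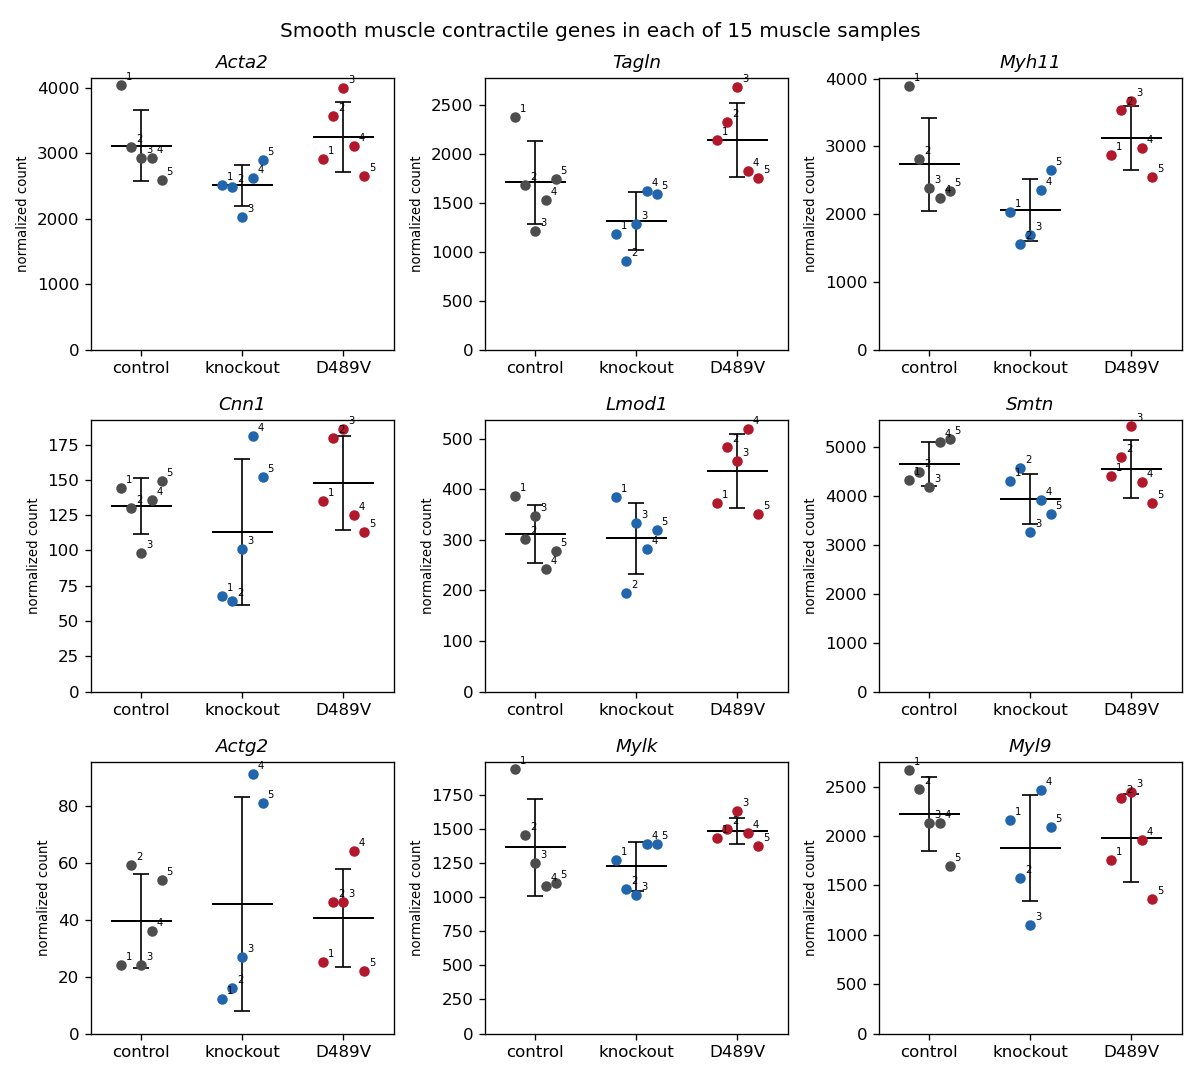
Normalized counts of the 9 genes (y axis, from 0) in the 15 samples by group (x axis); points are samples with their replicate numbers, horizontal lines are group means and error bars are SD (n = 5). Tagln is the member whose knockout values, 906 to 1624, all lie below its D489V values, 1757 to 2681.

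Per kb of exon, the control levels ran from 1910 ± 319 normalized counts for Myl9 to 25.3 ± 10.6 for Actg2 (SD, n = 5). Acta2 followed Myl9 at 1420 ± 249, then Smtn at 1060 ± 105 and Tagln at 859 ± 213. Myh11 stood at 360 ± 89.7 per kb, Mylk at 121 ± 31.5, Lmod1 at 78.8 ± 14.4 and Cnn1 at 48.0 ± 7.33. The control ranges of 4 neighbouring pairs in this order overlapped: Myl9 and Acta2, Smtn and Tagln, Mylk and Lmod1, and Cnn1 and Actg2. The other 4 neighbouring pairs lay apart, Acta2 and Smtn only just, at 1180 each to 3 digits. The visceral actin Actg2 thus held the lowest level of the list.

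Acta2 (ENSMUSG00000035783, chromosome 19, 34241090 to 34255590, minus strand) encodes the smooth muscle alpha-actin of vessel walls. Its normalized counts were 4040, 3093, 2926, 2922 and 2596 in controls 1 to 5. The knockout samples held 2507, 2480, 2030, 2618 and 2893, and the D489V samples 2916, 3571, 3998, 3103 and 2650. The knockout range overlapped both others, with 3 of 5 knockout samples below every control and 4 of 5 below every D489V sample. The log2 difference from control was -0.31 with a standard error (SE) of 0.128 in knockout (limma adjusted p 0.312; exact permutation p 0.0238). The D489V difference was 0.06 (SE 0.138, limma adjusted p 0.919). Knockout minus D489V gave -0.37 (SE 0.124, limma adjusted p 0.0532), just short of the threshold.

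Actg2 (ENSMUSG00000059430, chromosome 6, 83512905 to 83536265, minus strand), the actin gene best known from gut and other visceral smooth muscle, was read at low and scattered values. Controls 1 to 5 held 24, 59, 24, 36 and 54 normalized counts. Knockout samples held 12, 16, 27, 91 and 81, and D489V samples 25, 46, 46, 64 and 22. Knockout 4 and 5 were the highest of all 15 samples and knockout 1 and 2 the lowest. The knockout mean of 45.4 ± 37.6 (SD, n = 5) was above the control mean of 39.4 ± 16.5, while on the log2 scale the difference was -0.14, with a 95% interval from -1.34 to 1.06. Between knockout and D489V the interval ran from -1.36 to 1.00 around -0.18, wide enough to hold a difference of a full log2 unit either way. No stretch of 50 bases in Actg2 or Acta2 transcripts occurs in Acta1 or Actc1, the abundant striated actins, and 0.326% of those of Acta2 occur in another gene, among them Actg1.

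Lmod1 (ENSMUSG00000048096, chromosome 1, 135324807 to 135368065, plus strand) encodes the smooth muscle leiomodin, which starts new actin filaments. Its normalized counts in controls were 386, 302, 348, 242 and 278. In knockout they were 385, 195, 334, 282 and 319, and in D489V 372, 483, 455, 520 and 351. The knockout range of 195 to 385 sat on the control range of 242 to 386, whereas 3 of 5 D489V samples were above every other sample of the study. Lmod1 was 0.54 lower in knockout than in D489V on the log2 scale (SE 0.177, limma adjusted p 0.0475). This call was the least firm of those that passed, since it was kept in 2 of 10 fits that left out 1 sample, without knockout 1 and without D489V 5. Over those fits the log2 difference stayed between -0.64 and -0.39, with limma adjusted p from 0.0344 to 0.109. Against control the D489V difference was 0.49 (SE 0.152, limma adjusted p 0.319; exact permutation p 0.0317), and the knockout difference was -0.05 (SE 0.187, limma adjusted p 0.896). The paralogue of skeletal fibres, Lmod3, had a log2 difference of 0.01 between knockout and D489V (limma adjusted p 0.955).

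Myh11 (ENSMUSG00000018830, chromosome 16, 14194535 to 14291372, minus strand), the smooth muscle myosin heavy chain and the most specific marker of mature smooth muscle on the list, held 3886, 2816, 2386, 2233 and 2344 normalized counts in controls. Knockout samples held 2034, 1563, 1696, 2351 and 2654, and D489V samples 2868, 3539, 3673, 2978 and 2554. Knockout 5 was the only knockout sample within the D489V range, and control 1 was above every other sample. Myh11 was 0.61 lower in knockout than in D489V on the log2 scale (SE 0.152, limma adjusted p 0.0178). Without D489V 2 the difference was -0.57 and the limma adjusted p 0.0508, and with both knockout 3 and D489V 3 left out it was -0.49 with an adjusted p of 0.0727. Against control, knockout differed by -0.40 (SE 0.179, limma adjusted p 0.323) and D489V by 0.21 (SE 0.158, limma adjusted p 0.709). The mean was 2060 ± 452 in knockout, 2733 ± 682 in control and 3122 ± 470 in D489V (SD, n = 5).

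Myl9 (ENSMUSG00000067818, chromosome 2, 156775420 to 156781658, plus strand), the regulatory light chain, passed in no comparison. Controls held 2669, 2476, 2137, 2137 and 1701 normalized counts, knockout samples 2163, 1581, 1102, 2466 and 2088, and D489V samples 1759, 2387, 2443, 1962 and 1367. All 3 ranges overlapped, and the control mean of 2224 ± 371 was the highest (SD, n = 5). The log2 difference was -0.28 in knockout against control (95% interval -0.73 to 0.16), -0.18 in D489V against control (-0.55 to 0.19) and -0.10 in knockout against D489V (-0.57 to 0.37). Knockout 3, at 1102, carried much of the last value, which was 0.078 without it. The difference between Myl9 and Myh11 in these changes was not tested.

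Mylk (ENSMUSG00000022836, chromosome 16, 34745210 to 35002420, plus strand) encodes the kinase that acts on Myl9, and its gene-level value adds up long and short kinase forms and telokin. Its normalized counts were 1945, 1456, 1253, 1083 and 1104 in controls, 1276, 1062, 1015, 1394 and 1392 in knockout, and 1437, 1501, 1637, 1474 and 1378 in D489V. The D489V samples were the tightest group of any member, with an SD of 6.5% of the mean against 26.0% in controls, where control 1 was the highest sample of the study. Knockout differed from D489V by -0.28 (SE 0.105, limma adjusted p 0.0707; exact permutation p 0.0238). The log2 difference from control was -0.13 in knockout and 0.15 in D489V, with limma adjusted p of 0.691 and 0.787. The skeletal kinase gene Mylk2, far more abundant here at 28709 ± 4410 in controls (SD, n = 5), differed by -0.16 between knockout and D489V (limma adjusted p 0.570).

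Tagln (ENSMUSG00000032085, chromosome 9, 45929619 to 45936058, minus strand) encodes transgelin, an actin-bundling protein and an early marker of smooth muscle. Controls held 2373, 1678, 1214, 1531 and 1743 normalized counts, knockout samples 1181, 906, 1280, 1624 and 1588, and D489V samples 2142, 2321, 2681, 1824 and 1757. It was the only member whose knockout and D489V groups did not overlap, where 6.7% of all genes tested had every knockout sample below every D489V sample (13.9% in either direction). Tagln was 0.72 lower in knockout on the log2 scale, or 0.608 of the D489V level (SE of the log2 difference 0.166, limma adjusted p 0.0141; exact permutation p 0.00794, the smallest that 5 against 5 samples can give). The call was kept in all 10 fits without 1 sample, with limma adjusted p from 0.013 to 0.0409, and with both knockout 3 and D489V 3 left out (log2 difference -0.63, adjusted p 0.0486). The controls spanned both groups: control 1 lay within the D489V range, controls 3 and 4 within the knockout range, and controls 2 and 5 between. From control, knockout differed by -0.37 and D489V by 0.35 on the log2 scale, with limma adjusted p of 0.360 and 0.571. An antisense gene, Gm48529, shares 1241 exonic bases with Tagln. The value of Gm48529 was at most 57 in any sample. Pcsk7, a protein-coding gene on the opposite strand, shares 108 exonic bases with Tagln. Its mean value was 547 and its highest 601. Whether the authors counted by strand is not given in the sources used here.

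Cnn1 (ENSMUSG00000001349, chromosome 9, 22099216 to 22109630, plus strand) encodes calponin, which binds actin and slows the myosin motor. It held 144, 130, 98, 136 and 149 normalized counts in controls, 68, 64, 101, 181 and 152 in knockout, and 135, 180, 186, 125 and 113 in D489V. Knockout 1 and 2 were the lowest of the 15 samples, while knockout 4 was among the 3 highest. The knockout SD was thus 45.7% of its mean, against 15.3% in controls and 22.4% in D489V. The log2 difference was -0.32 in knockout against control, 0.15 in D489V against control and -0.48 in knockout against D489V, with limma adjusted p of 0.572, 0.820 and 0.243. The 95% interval of the last ran from -1.10 to 0.15.

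Smtn (ENSMUSG00000020439, chromosome 11, 3517523 to 3540612, minus strand) encodes smoothelin, an actin-associated protein of contractile smooth muscle. Its normalized counts were 4319, 4489, 4184, 5107 and 5176 in controls, 4307, 4568, 3269, 3924 and 3624 in knockout, and 4402, 4788, 5438, 4292 and 3857 in D489V. Knockout 3 to 5 lay below every control, and knockout 1 and 2 lay within the control range. Knockout differed from control by -0.25 (SE 0.109, limma adjusted p 0.322; exact permutation p 0.0635). The D489V difference from control was -0.04 (95% interval -0.27 to 0.20), and knockout against D489V was -0.21 (limma adjusted p 0.197).

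**Figure D2:**
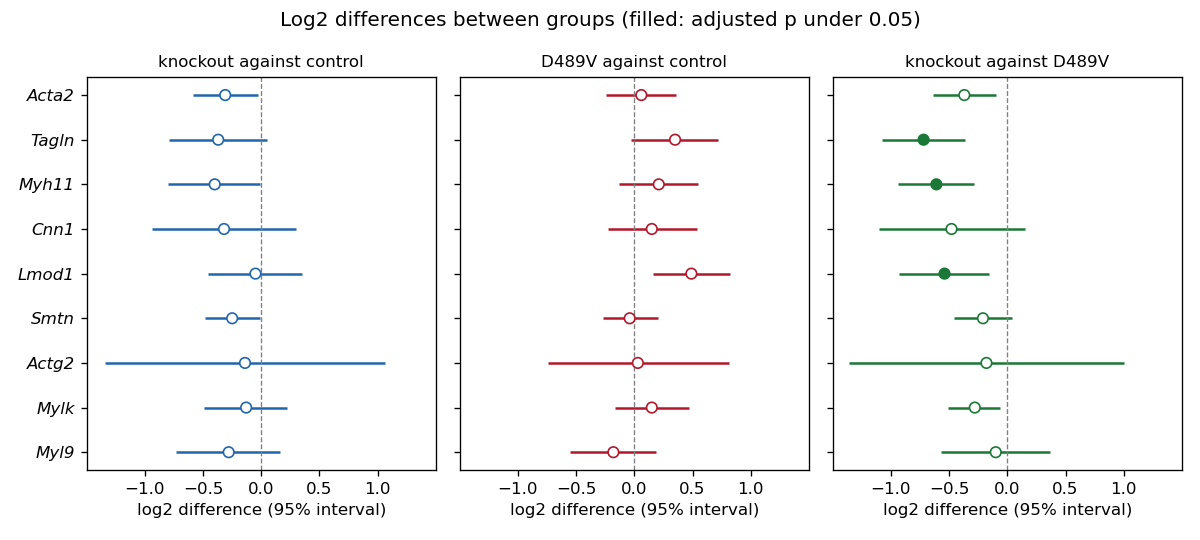
Log2 differences of the 9 genes (x axis; 95% intervals) in the 3 comparisons, with genes on the y axis; filled points have a limma adjusted p under 0.05 over all genes tested. Filled points occur in knockout against D489V alone, for Tagln, Myh11 and Lmod1, at -0.72, -0.61 and -0.54.

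In knockout against control, 9 of 9 log2 differences were below 0 with a median of -0.28, where 48.5% of 15234 genes tested were below 0 and their median was 0.01. None passed the limma threshold, 1 gene in all did (0.00656%), and 3 members, Acta2, Myh11 and Smtn, had an unadjusted p under 0.05 and were lower, where 7.42% of all genes did so. In D489V against control, 7 of 9 were above 0 with a median of 0.15, where 50.4% of 15339 genes tested were above 0. None passed, 9 genes in all did (0.0587%), and Lmod1 alone had an unadjusted p under 0.05 and was higher, where 5.37% of all genes did so. In knockout against D489V, 9 of 9 were below 0 with a median of -0.37 (49.9% of all genes tested), and 5 had an unadjusted p under 0.05 and were lower (18.3% of all genes tested). No member had groups that did not overlap against control, where 2.24% of genes did in knockout and 2.16% in D489V. The members covary, so they do not count as 9 separate observations, and both comparisons with control share the same 5 control samples.

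The count of called members depended on single samples. Leaving out 1 sample gave 1 to 4 called members in knockout against D489V, the 1 being Tagln, without D489V 2. With knockout 3 and D489V 3 both left out, Tagln alone passed, and 8 of 9 members remained below 0. Leaving out knockout 3 alone kept Tagln and Myh11. In knockout against control without knockout 3, 9 of 9 members were still below 0, with Acta2 at -0.23, Tagln at -0.37 and Myh11 at -0.34. Over the 10 fits of that comparison without 1 sample, 7 to 9 members were below 0, the 7 being without control 1 and without knockout 2.

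Within the groups, some members were high or low together in the same samples, and Smtn was in no pair that passed. After the group means had been taken off, Myh11 and Mylk had a Pearson r of 0.92 and a Spearman rho of 0.92 over 15 samples. The permutation p was 1e-05 for both, the smallest that 100000 shuffles within groups can give (adjusted p 0.00018 over 36 pairs), and r was 0.87 without the 2 samples farthest from the median of Myh11. Acta2 and Myh11 gave an r of 0.87 and a rho of 0.85 (adjusted permutation p 0.0012 and 0.00144; r 0.79 without 2 samples). Tagln and Cnn1 gave an r of 0.83 and a rho of 0.88 (adjusted permutation p 0.0012 and 0.000936; r 0.87 without 2 samples). Over all 36 pairs the median r was 0.42, with a range of -0.29 to 0.92. The share of passing pairs among other genes was not computed. Of the 36 pairs, 9 had an adjusted permutation p under 0.05 for r, and these joined Acta2, Myh11, Mylk, Myl9, Tagln, Cnn1 and Actg2. The last of these entered through Cnn1 alone (r 0.82, rho 0.76, adjusted permutation p 0.0323 and 0.0516; r 0.73 without 2 samples). Smtn and Myh11 had an r of -0.01 and a rho of 0.01 (adjusted permutation p 0.975 and 0.988; r 0.26 without 2 samples), and the median r of Smtn with the other members was 0.01. Lmod1 too was in no such pair, and its highest r was 0.59, with Myh11.

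The same samples stood at the ends for most members. Control 1 was the highest control for 6 of 9 members and D489V 3 the highest D489V sample for 7 of 9. D489V 5 was the lowest D489V sample for 9 of 9. In knockout, 2 and 3 were each the lowest sample for 4 members, and knockout 4 was the highest for 5. Over all 15 samples the median rank of the members was 2 in control 1 and in D489V 3, and 14 in knockout 2 and knockout 3. A spread of this size lies within each genotype: the summed level of the 9 members per kb was 5270 to 7170 in controls, 3720 to 5660 in knockout samples and 4750 to 7350 in D489V samples.

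**Figure D3:**
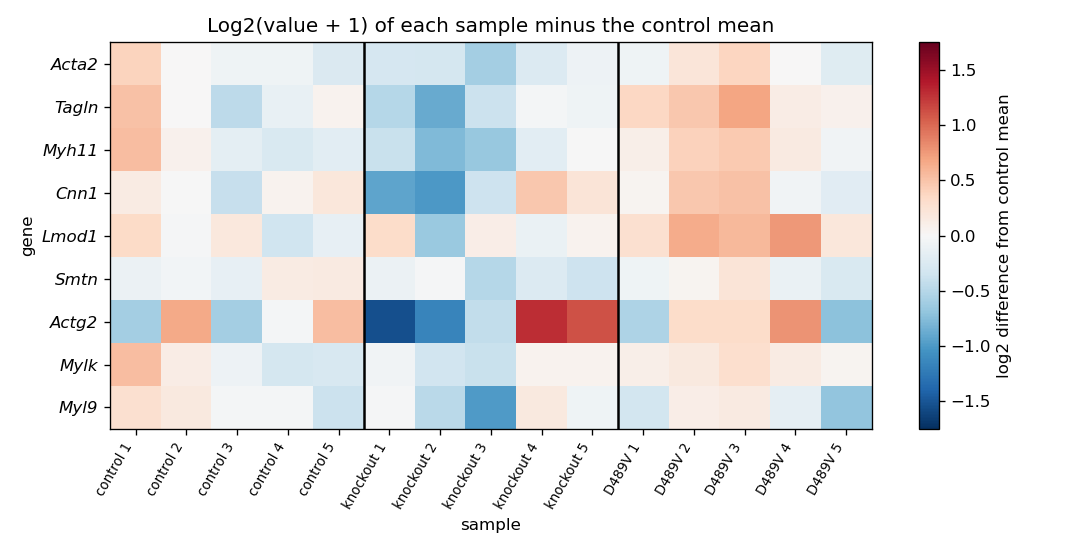
Log2(value + 1) of each gene (rows) in each sample (columns) minus the mean of the 5 controls; red is above and blue below that mean, and black lines part the groups. Control 1, D489V 2 and D489V 3 are red for most genes, and knockout 2 and knockout 3 are mostly blue.

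By the likeness rule, the genes outside the list whose within-group pattern over 15 samples was closest to the mean of the members were, among 12151 genes with a mean of 50 or more, Procr (Pearson r 0.93, Spearman rho 0.92), 2900079G21Rik (0.91, 0.91), Tagln2 (0.90, 0.88), Rapgef3 (0.89, 0.91), Nsd3 (0.89, 0.82), Gm37435 (0.89, 0.86), Eya2 (0.89, 0.88) and Ttll3 (0.89, 0.85). These were picked as the highest of many and are a description. Procr encodes the endothelial protein C receptor and Tagln2 a transgelin paralogue of non-muscle cells. Rapgef3, which encodes a cyclic AMP sensor, was the gene of these 8 that passed between knockout and D489V, at 450.0 ± 61.9 in knockout and 719 ± 130 in D489V (SD, n = 5), a log2 difference of -0.67 (limma adjusted p 0.00867). With the members' mean, the median r was 0.33 for 12 endothelial markers, with a range of -0.17 to 0.65. It was 0.02 for 12 pericyte markers (-0.64 to 0.7) and 0.38 for 10 fibroblast markers (0.07 to 0.83). For 20 other genes of the smooth muscle cytoskeleton it was 0.3 (-0.73 to 0.81), and for 12 skeletal fibre markers -0.23 (-0.76 to 0.33). The regulators and the vascular tone genes described below gave -0.09 (-0.74 to 0.76) and 0.04 (-0.64 to 0.68). The median over all genes was not computed, and these values were not tested.

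Among 20 other genes of the smooth muscle cytoskeleton, several are also abundant in skeletal fibres. Of the 20, 3 were called lower and 3 higher in knockout than in D489V, against 10.3% and 10.5% of all genes tested. The median log2 difference was -0.12. Mustn1, an SRF target also active in skeletal muscle, was 0.81 lower on the log2 scale (limma adjusted p 0.00693). Tgfb1i1, which encodes the focal adhesion protein Hic-5 of smooth muscle, was 0.70 lower (limma adjusted p 0.00618), at 300 ± 46.1 against 486 ± 65.1 normalized counts (SD, n = 5). Both groups lay apart for these genes. Tpm2, a tropomyosin shared with slow and fast fibres, was 0.68 lower (limma adjusted p 0.0329), while the intermediate filament gene Synm and the adhesion gene Vcl were 0.70 and 0.59 higher (limma adjusted p 0.0435 and 0.0266). The last of the 6, Ppp1r12b, was 0.54 higher (limma adjusted p 0.0238) and is named outside the rule, after its value was seen. None of the 20 passed against control in either mutant group, and caldesmon (Cald1) differed by -0.18 between knockout and D489V (limma adjusted p 0.174).

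Of 24 regulators of smooth muscle transcription, 22 passed the filter, and 6 were called lower and 2 higher in knockout than in D489V. The shares over all genes tested were 10.3% lower and 10.5% higher. Gata6, a GATA factor of vascular smooth muscle, was 1.57 lower on the log2 scale (limma adjusted p 0.0118), at 12.2 ± 7.60 against 34.2 ± 5.26 normalized counts (SD, n = 5). The Notch target Hey2 and the Notch ligand gene Jag1 were lower by 1.26 and 0.72 (limma adjusted p 0.0196 and 0.00224). Klf4, which opposes the contractile programme in culture, was likewise lower, by 1.04 (limma adjusted p 0.00247), and Foxc1 by 0.86 (limma adjusted p 0.0267). The sixth was Hes1, at -0.43 (limma adjusted p 0.0396), and those higher in knockout were Smad3 at 0.44 and Mef2c at 0.34 (limma adjusted p 0.0360 and 0.0289), all named after their values were seen. Srf itself, at 3057 ± 317 in knockout and 2396 ± 521 in D489V (SD, n = 5), had a log2 difference of 0.37 with the opposite sign to the members (limma adjusted p 0.0796). Its coactivator genes Mrtfa and Mrtfb differed by 0.28 and -0.06 (limma adjusted p 0.152 and 0.681). Myocd, the myocardin gene, was too low to test, at 1 to 14 normalized counts in controls and 4 to 10 in both mutant groups. None of the 22 passed against control.

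Of 34 receptors, channels and enzymes that set vascular tone, 32 passed the filter in knockout against D489V. Of these, 11 were called lower and 4 higher in knockout, against 10.3% and 10.5% of all genes tested. The median log2 difference was -0.41. Agtr1a, the angiotensin II receptor gene, was at 86.2 ± 15.8 in knockout and 165 ± 18.5 in D489V (SD, n = 5), with all knockout samples below all D489V samples (log2 difference -0.94, limma adjusted p 0.00349). Rgs2, which damps signals of such receptors, was lower by 1.08 (limma adjusted p 0.00784). Cacna1c, the L-type calcium channel of smooth and cardiac muscle, was lower by 0.74 (limma adjusted p 0.00770), as were Rasl12 by 0.83 and Ppp1r14a, which encodes an inhibitor of myosin phosphatase, by 0.77 (limma adjusted p 0.00351 and 0.0176). The 4 higher in knockout, named after their values were seen, were Kcnma1, Rock2, Ppp1cb and Abcc9, at 0.54, 0.46, 0.45 and 0.34 (limma adjusted p 0.0346, 0.0288, 0.0474 and 0.0434). None of the 34 passed in either comparison with control, where the medians were -0.30 in knockout and 0.04 in D489V.

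**Figure D4:**
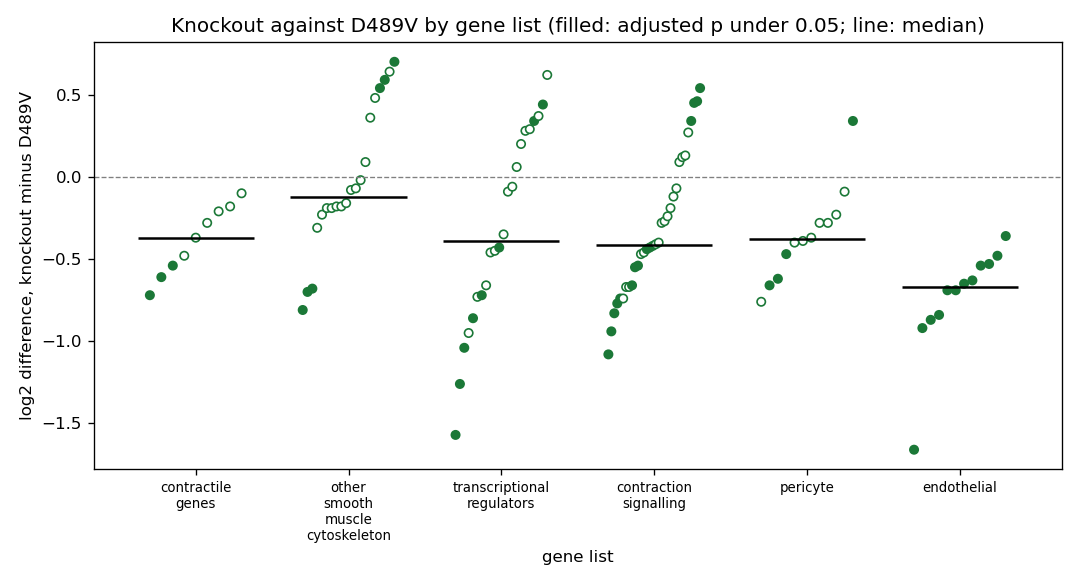
Log2 difference, knockout minus D489V (y axis), of each tested gene in 6 lists (x axis); filled points have a limma adjusted p under 0.05 and black lines are medians. All 9 contractile genes and all 12 endothelial markers lie below 0, with medians of -0.37 and -0.67, while the other lists hold filled points on both sides.

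The paralogues that serve skeletal fibres or non-muscle cells had a median log2 difference of 0 between knockout and D489V over 22 genes. Of these, 2 were called higher in knockout, Mylk4 by 1.15 and the non-muscle myosin gene Myh10 by 0.63 (limma adjusted p 0.0282 and 0.0432). Another 2 were called lower, Myl12b by 0.83 and Myl6 by 0.50 (limma adjusted p 0.0283 and 0.0141). Over all genes tested, 10.5% were called higher and 10.3% lower. Myl6 encodes the essential light chain that smooth muscle myosin shares with non-muscle myosin. The skeletal actin Acta1 and the cytoplasmic actin Actb differed by -0.05 and 0.06 (limma adjusted p 0.908 and 0.787). None of the 22 passed in either comparison with control.

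Markers of other cells of the vessel wall also differed between knockout and D489V. Those called were all 12 genes of the endothelial list, 5 of 8 of the arterial list and 4 of 12 of the pericyte list. Their part in the members' result was not tested. Of all genes tested, 20.8% were called in either direction. No marker of any list was at 0 in all samples. All 12 endothelial markers were lower in knockout and passed the threshold, with a median of -0.67. They were led by Cldn5 (-1.66), Egfl7 (-0.92), Kdr (-0.87) and Erg (-0.84), with limma adjusted p of 0.00243, 0.00693, 0.00778 and 0.00713. Their summed level per kb was 2520 to 4050 in knockout, 4960 to 6200 in D489V and 4330 to 6700 in controls, so the knockout samples lay below all others. Of 8 arterial endothelial markers, 5 were lower, Bmx, Dll4, Efnb2, Gja5 and Sema3g (log2 differences of -0.99, -0.83, -0.77, -0.59 and -0.55, limma adjusted p 0.012, 0.0154, 0.00437, 0.0396 and 0.0126). Their summed level was 448 to 604 in knockout, 672 to 945 in D489V and 554 to 912 in controls. Of 12 pericyte markers, Kcnj8, Cspg4 and Anpep were lower by 0.66, 0.62 and 0.47, and Abcc9 was higher (limma adjusted p 0.00215, 0.00391, 0.0319 and 0.0434). Their summed level was 4530 to 5600 in knockout, 5480 to 6730 in D489V and 5350 to 6080 in controls. The tallies against control were 0 of 12 endothelial, 0 of 8 arterial and 0 of 12 pericyte markers in both mutant groups by limma. At an unadjusted p under 0.05, 10, 2 and 4 of them were lower in knockout and 1, 2 and 1 were higher in D489V. Of all genes tested against control, 7.42% were lower in knockout and 5.37% higher in D489V at this threshold.

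**Figure D5:**
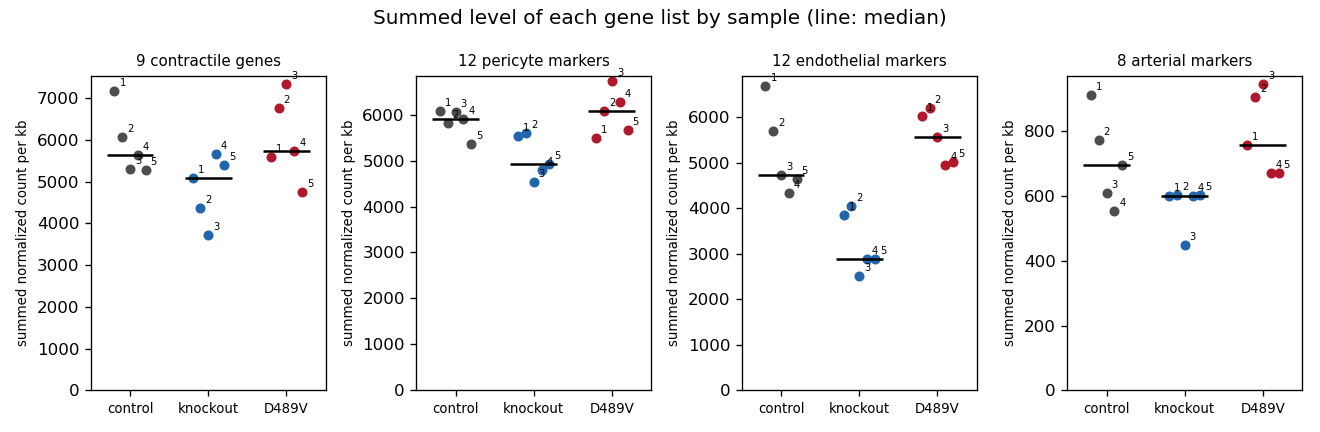
Summed normalized counts per kb of exon (y axis, from 0) of the contractile genes and of 3 marker lists in each sample by group (x axis); points carry replicate numbers and lines are medians. The endothelial sum of every knockout sample, 2520 to 4050, is below every other sample, while the contractile sums of knockout, 3720 to 5660, overlap both other groups. By control level, Myl9, Acta2 and Smtn weigh most in the contractile sum, and none of them was called.

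Of the 7 marker lists for cells outside the vessel wall, 3 held called genes in knockout against D489V, those of adipocytes, Schwann cells and red blood cells, and their part in the members' differences was likewise not tested. Of 8 adipocyte markers 7 were lower in knockout than in D489V, with a median of -1.86, and their summed level was 6690 to 10400 per kb in knockout, 17900 to 63000 in D489V and 2680 to 37100 in controls. Of 8 Schwann cell markers 7 were lower (median -1.08), as were all 5 tested of 6 red blood cell genes (median -1.67). Over all genes tested, 10.3% were called lower. The Schwann sums were 2350 to 3760 per kb in knockout, 4810 to 19500 in D489V and 3410 to 5540 in controls. The red blood cell sums were 4030 to 10200, 15800 to 27900 and 7180 to 10700. No gene passed among 10 fibroblast, 12 skeletal fibre, 6 tested lymphocyte and 6 macrophage markers by limma. At an unadjusted p under 0.05, 3, 0, 0 and 0 of them were lower and 0, 1, 0 and 0 were higher. Of all genes tested, 18.3% were lower at that threshold. The fibroblast sum was 6440 to 22000 per kb in knockout, lowest in knockout 3, 11200 to 15800 in D489V and 16100 to 19000 in controls. None of these lists held a called gene against control.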

How the data were processed

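Poly(A) RNA was sequenced with a directional library kit, per the labels' protocols. The authors deposited 2 tables, each with the 5 controls and 5 samples of another group, and the values are a score: normalized gene counts rounded by the authors, as the tables' names tell. The submitters' processing notes list Trim Galore 0.6.0, cutadapt, FastQC, STAR 2.7.0e, DESeq2 1.26.0 and GRCm38, with no role or order; the counting tool and its strand setting are not given in the sources used here. Tables were joined by gene identifier. Control values were identical in both, and median ratios to the geometric mean over samples were 1.0069 to 1.0097, so knockout and D489V were compared directly. In 8 of 15 columns no whole number from 1 to 100 was missing, so whole reads could not be recovered, no count test was run, and read depth is known only as sums of values.

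For each pair of groups, log2(value + 1) went into limma 3.58.1 (R 4.3.3; trended eBayes, two-sided tests) over the 5 + 5 samples. Genes entered with at least 5 samples at 10 or above, p-values were adjusted over all genes tested by the Benjamini-Hochberg method, and the threshold was 0.05. On this scale the changes of low genes come out too small. The script was tested on simulated data. Exact permutation tests are two-sided. Levels per kb use GENCODE M21 exon unions on GRCm38. The rule for names takes Pdgfrb, all members, at most 5 called genes of each other list by size of change (or its first 3 where none was called) and the 8 genes most alike. Srf, Mrtfa, Mrtfb, Myocd, Cald1, Lmod2, Lmod3, Mylk2, Acta1, Actb and Xist were named outside it, after their values were seen. The members and lists were chosen with earlier results of these data known. Alternatives changed the pseudocount, filter, scaling, variance model, weights and samples.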

Additional observations from a re-analysis of the deposited data

Results flagged for a closer look

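Of 75 groups of 5 values tested, for the members, Pdgfrb and the summed list levels, 4 had a sample whose gap to the nearest other exceeded 0.71 of the group's range, where chance gives about 3.75. None concerned a member. The summed arterial endothelial level of knockout 3, at a log2 of 8.81, lay far below 9.23 to 9.24 in the other knockout samples (gap 0.977 of the range). The Schwann cell sum of D489V 3, at 14.2, lay above 12.2 to 12.5 (gap 0.867). In control 5, the lymphocyte sum of 11.2 lay above 3.97 to 5.82 (gap 0.742) and the macrophage sum of 11.3 above 9.86 to 10.2 (gap 0.723). This rule looks for a single sample far from the rest of its group, so it does not flag several high samples. Knockout 3, 4 and 5 also held high lymphocyte sums, at 897, 2120 and 637 per kb. Knockout 1 and 2 held 22.7 and 18.0, control 5 held 2290, and D489V samples 37.2 to 114.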

How the results depend on the processing

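Of 546 values of single members under the alternatives, 501 kept direction and side of the threshold. Another 15 lost the threshold, 7 gained it and 23 changed sign. All sign changes lay in comparisons where the member had not passed in the main fit. The count of genes in knockout against control was 3 after upper-quartile rescaling, 3 after quantile normalization, 16 in 1 fit over all 15 samples, and 1 to 7 without 1 sample. For D489V against control it was 19 at pseudocount 5, 4 among genes with a mean of 50 or more, 23 after rescaling to the upper quartile, 16 after quantile normalization, 21 by robust eBayes, 86 by array weights, 1 in the fit over all 15 samples, and 2 to 26 without 1 sample. In knockout against D489V, 1589 genes and 1 member passed with knockout 3 and D489V 3 left out, an alternative chosen after seeing the data; 5 members passed by array weights, and 1398 (without D489V 1) to 3686 genes and 1 to 4 members without 1 sample. Of the genes called there, 50.3% were higher in knockout, or 42.0% after upper-quartile rescaling. What lay behind these changes, the cause, was not tested.

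With the replicate block, 1 member (Tagln) passed in knockout against D489V. Myh11 and Lmod1 kept log2 differences of -0.61 and -0.54 but lost the threshold (limma adjusted p 0.054 and 0.0922), as did Pdgfrb (0.51, adjusted p 0.0643). No member passed against control. Deviations of samples with the same number correlated at -0.37 to 0.35, and the replicate numbers were not taken as pairs.

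Acta2 passed in knockout against D489V after upper-quartile rescaling, quantile normalization and with array weights (limma adjusted p 0.0465, 0.0355 and 0.0218), against 0.0218 to 0.195 over all its alternatives. Lmod1 lost the threshold under quantile normalization (adjusted p 0.0548) and with no filter (0.0686). Actg2 changed sign under quantile normalization (-0.0073 in D489V against control, 0.0038 in knockout against D489V) and by array weights (-0.028 in D489V against control), and Myl9 with knockout 3 and D489V 3 left out (0.16). Without 1 sample, sign changes lay within these log2 ranges: in knockout against control, Lmod1 -0.15 to 0.095, Mylk -0.21 to 0.0020 and Actg2 -0.50 to 0.21; in D489V against control, Acta2 -0.018 to 0.16, Smtn -0.10 to 0.022 and Actg2 -0.15 to 0.22; in knockout against D489V, Actg2 -0.53 to 0.17 and Myl9 -0.23 to 0.078. The alternatives with edgeR and DESeq2 need whole reads and were not run.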

Other observations

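The ratio of the members' summed level per kb to that of the 12 endothelial markers was 1.06 to 1.30 in controls, 0.927 to 1.32 in D489V and 1.08 to 1.96 in knockout, with the highest values in knockout 4 and 5, at 1.96 and 1.87. Against the 12 pericyte markers the ratio was 0.875 to 1.18 in controls, 0.781 to 1.18 in knockout and 0.840 to 1.11 in D489V, so these ranges overlapped. Against the 8 arterial endothelial markers it was 7.59 to 10.2 in controls, 7.25 to 9.43 in knockout and 7.07 to 8.54 in D489V, again overlapping. Against the 10 fibroblast markers it was 0.279 to 0.378 in controls, 0.208 to 0.577 in knockout and 0.337 to 0.56 in D489V. None of these ratios was tested, because the members were chosen with results of these data known. By control level, Myl9, Acta2 and Smtn weigh most in the members' sum, and none of them was called in the main fits.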
